A study of Mus musculus with 4 samples.

Results

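The Wnt signalling genes described here are the Wnt ligands, their Frizzled (Fzd) receptors and the secreted Frizzled-related proteins (Sfrp), followed by the acetylation of histone H3 at their promoters in mouse heart. Members were all genes of the deposited promoter table whose symbol begins with Wnt, Fzd or Sfrp and a digit, which gave 34 of the 23631 genes: 19 Wnt, 11 Fzd and 4 Sfrp. The 34 genes occupy 44 promoter rows, because 6 of them have several RefSeq transcripts, and each gene is represented by the row with the highest mean count. The 11 Fzd genes include Fzd10os, an antisense RNA gene beside Fzd10, whose counts nearly equal those of Fzd10, so the reads of these neighbours cannot be told apart.

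Per the labels, male C57BL6 mice (10 to 12 weeks old) had transverse aortic constriction (TAC), which puts a pressure load on the left ventricle, or a sham operation. Subcutaneous injections, 2 a day over 4 weeks at 0.6 mg/kg/day, contained trichostatin A (TSA), a histone deacetylase inhibitor dissolved in DMSO, or DMSO alone (Veh). Left ventricle was chromatin-immunoprecipitated with 1 lot of an antibody against acetylated H3 and sequenced. Each group holds 1 library, so no value has a replicate, and how many mice a library pools is not known here. Values in sets of 4 follow the order Sham Veh then Sham TSA, followed by TAC Veh and lastly TAC TSA. Labels tie both sham libraries, and neither TAC library, to an earlier deposit, so surgery and time of deposit cannot be told apart.

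Wnt proteins are secreted, lipid-modified ligands that bind the extracellular cysteine-rich domain of Frizzled receptors. Together with the co-receptors Lrp5 and Lrp6 this binding stabilises beta-catenin, the canonical branch, whereas Wnt5a and Wnt11 are best known for signalling through planar polarity and calcium. Sfrp proteins carry a Frizzled-like domain and bind Wnts outside the cell. The pathway is needed for heart formation and is studied in the adult heart mainly in relation to injury and fibrosis. Acetylated H3 marks active or accessible promoters, and its amount at a promoter is not a measure of the gene's RNA or protein.

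The promoter totals ranged from 6842296 counts (TAC TSA) to 9905553 (Sham TSA). Counts of 1 row per gene were divided by library sizes adjusted with the trimmed mean of M-values (TMM) and are given as counts per 1e6 (CPM). Promoters of olfactory and vomeronasal receptors, genes of sensory neurons, served as a low reference. Of 1455 such promoters 1274 passed the filter, with a median of 3.11 CPM and percentiles 5 and 95 at 1.86 and 8.53 CPM. Their summed level was 4164, 4252, 4916 and 6414 CPM, so the TAC TSA library stood apart with the highest reference level and the fewest counts. Markers of the labelled tissue were present: all 10 cardiomyocyte markers were measured, at a median of 63.9 CPM against 36.3 CPM over all promoters tested.

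Start-site sequence was available for 23 members, as 26 windows of 300 bases (250 before and 50 after the annotated start; RefSeq, GRCm38.p6), whereas the counts were made on the mm9 build in a promoter window of unknown length. The 250 bases before the start are printed for the most acetylated member, Fzd4 (chr7:89404116-89404365, plus strand), and the least acetylated, Wnt8b (chr19:44493222-44493471, plus strand). The neighbours Wnt9a (chr11:59306680-59306929, plus strand) and Wnt3a (chr11:59290752-59291001, minus strand), chosen after their values were seen, are both rich in CpG dinucleotides but differ in acetylation. Capitals mark CpG dinucleotides, and all are written 5′ to 3′ on the strand of the gene.
Fzd4: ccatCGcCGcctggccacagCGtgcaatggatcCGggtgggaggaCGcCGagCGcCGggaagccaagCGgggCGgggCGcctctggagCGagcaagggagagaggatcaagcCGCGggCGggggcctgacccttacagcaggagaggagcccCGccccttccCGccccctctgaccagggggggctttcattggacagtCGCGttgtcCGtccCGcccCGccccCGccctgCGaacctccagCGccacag
Wnt8b: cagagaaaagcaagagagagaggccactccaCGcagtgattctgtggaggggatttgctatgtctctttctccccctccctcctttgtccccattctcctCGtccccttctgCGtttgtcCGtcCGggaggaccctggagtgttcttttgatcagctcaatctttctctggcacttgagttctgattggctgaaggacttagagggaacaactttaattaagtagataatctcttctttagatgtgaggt
Wnt9a: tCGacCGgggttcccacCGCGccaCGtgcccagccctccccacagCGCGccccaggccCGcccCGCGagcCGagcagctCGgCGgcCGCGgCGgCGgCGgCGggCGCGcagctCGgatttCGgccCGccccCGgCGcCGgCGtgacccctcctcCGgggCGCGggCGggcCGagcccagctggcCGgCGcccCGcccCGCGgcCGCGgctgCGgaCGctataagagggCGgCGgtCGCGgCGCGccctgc
Wnt3a: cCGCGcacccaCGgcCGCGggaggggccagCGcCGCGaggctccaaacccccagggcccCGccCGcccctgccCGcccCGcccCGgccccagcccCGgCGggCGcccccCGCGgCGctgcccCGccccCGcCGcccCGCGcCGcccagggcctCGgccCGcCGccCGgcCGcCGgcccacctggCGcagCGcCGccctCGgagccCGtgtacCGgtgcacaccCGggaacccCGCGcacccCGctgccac
These stretches hold 25 CpG dinucleotides in Fzd4, 5 in Wnt8b, 48 in Wnt9a and 41 in Wnt3a.

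Frizzled promoters carried the highest levels of the 3 families. The Fzd median was 63.7 CPM, against 23.4 for Wnt and 25.4 for Sfrp, and the first 6 places in the order of mean level were all Fzd genes. Fzd4, a receptor that also takes the non-Wnt ligand norrin in blood vessels, was highest at 150, 155, 137 and 135 CPM (1016, 1071, 868 and 682 counts). It lay at percentile 99.2 of all promoters tested and above every other member in all 4 libraries. Fzd8 followed with 728, 679, 666 and 478 counts and Fzd7 with 684, 656, 660 and 483, and in no library did they differ beyond counting error. Fzd5 (557, 619, 519 and 392 counts) and Fzd1 (497, 514, 558 and 377 counts) came next. The weakest receptors were Fzd10, at 12.3 to 13.7 CPM, and Fzd9, at 22.4 to 30.8 CPM. The receptor family therefore spanned nearly the whole range of the members, which was 11.7-fold from Fzd4 to Wnt8b.

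Among the ligands, Wnt9a (60.9 CPM on average), Wnt11 (59.2) and Wnt5a (53.9) had the strongest promoters. The 4 ligands listed as non-canonical (Wnt4, Wnt5a, Wnt5b and Wnt11) had a median of 42.7 CPM and the 15 others 21.0 CPM. Wnt4, a ligand needed in kidney and gonad development, was nevertheless among the weakest at 15.7 CPM. Wnt5a, Wnt5b and Wnt11 are each represented by the strongest of several rows, and among the others only Wnt7b is. Weaker rows were at 20.05 to 23.7 CPM for Wnt5a, 22.2 to 30.6 for Wnt5b and 51.05 to 59.3 for Wnt11. The gap between the medians thus depends on the row chosen. Wnt8b, best known from the developing forebrain, was last with 12.3 CPM, still above 97.9% of the receptor reference promoters. Of the 33 steps between neighbours in the order of all members, only those from Fzd4 to Fzd8 and from Fzd2 to Wnt1 exceeded counting error in all 4 libraries, and 12 did so in at least 1. The order within the middle and lower part is thus not resolved at this depth. These levels compare genes on the assumption of equal promoter windows.

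**Figure D1:**
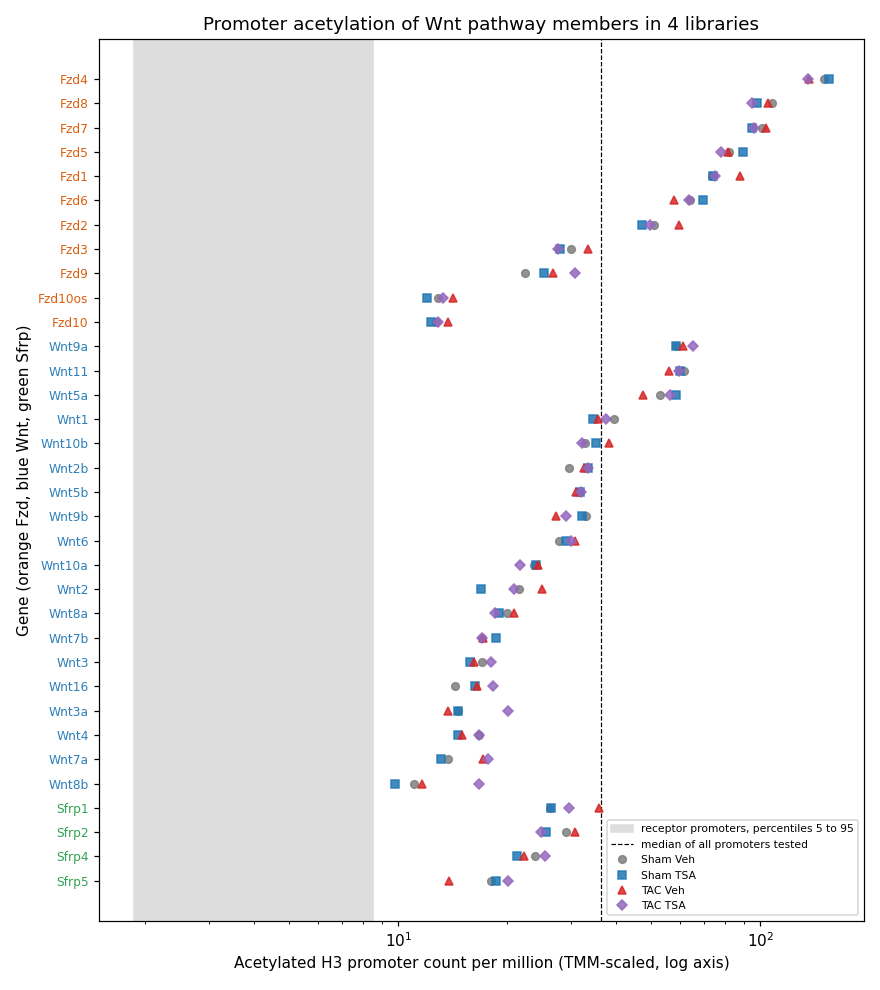
Scaled acetylated H3 count in CPM (log axis) at the promoter of each member in the 4 libraries, by family in order of mean level; the grey band spans percentiles 5 to 95 of the receptor reference promoters and the dashed line is the median of all promoters. Symbols of a gene lie close together compared with the 11.7-fold range between genes, and every member lies to the right of the band.

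The Sfrp promoters were moderate to weak. Sfrp1 had 26.3, 26.4, 35.9 and 29.6 CPM (178, 183, 228 and 149 counts), with TAC Veh the highest library. Sfrp2 had 197, 177, 195 and 125 counts and Sfrp4 had 162, 147, 141 and 128. Sfrp5 had 122, 129, 88 and 101 counts, with TAC Veh the lowest library. Frzb, a further Frizzled-related inhibitor outside the symbol rule, had a stronger promoter with 343, 328, 355 and 232 counts.

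Several Wnt genes lie next to each other in the genome, and their promoters were compared within each library. Wnt9a exceeded its neighbour Wnt3a on chromosome 11 by 3.87-fold on average, and Wnt9b exceeded Wnt3, also on chromosome 11, by 1.81-fold, both beyond counting error in 4 of 4 libraries. Wnt6 exceeded Wnt10a on chromosome 1 by 1.25-fold, higher in all 4 libraries but beyond counting error in 2. Wnt1 and Wnt10b on chromosome 15 were at 36.8 and 34.5 CPM, with Wnt1 higher in 2 libraries.

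CpG content did not order the 21 members with a single start window by acetylation, although it did so for genes at large. Among the 10 members with the highest level, Fzd8, Fzd6, Fzd2 and Wnt5a have no window and Wnt11 has 2. The strong end of the members is thus only partly covered. Across 14391 genes with a single start window, the CpG count and log2 CPM had a Pearson correlation of 0.642 (Spearman 0.701), and across the 21 such members 0.0431 (Spearman -0.0052). These are descriptions over genes that share libraries, base composition and map of starts. Members had a median of 29 CpG per window (range 6 to 58), against 14 over all such genes and 1 over receptor reference promoters. The 7 members with at least 40 CpG, a limit chosen after the data were seen, had a median of 15.7 CPM, against 71.0 CPM (quartiles 48.3 and 92.7) over 697 genes of that class. They were Fzd10, Wnt7a, Wnt3a, Wnt4, Fzd9, Wnt2b and Wnt9a, from percentile 4.0 (Fzd10) to 36.3 (Wnt9a) of the class. The 14 members under 40 CpG had a median of 29.9 CPM, close to the 33.3 CPM over 13694 such genes. Fzd1, with 16 CpG and 77.5 CPM, lay on the opposite side.

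**Figure D2:**
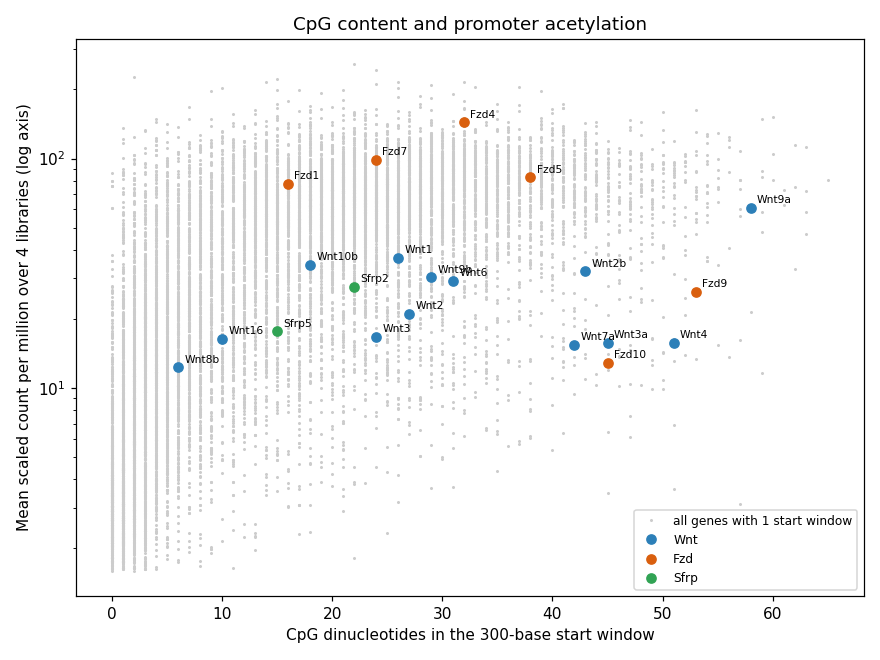
CpG dinucleotides in the 300-base start window (x axis) against mean scaled count in CPM over 4 libraries (y axis, log) for genes with 1 window; grey points are all 14391 genes and coloured points the 21 members. Wnt4, Wnt3a, Wnt7a and Fzd10 sit low among CpG-rich promoters, whereas Fzd4 sits near the top.

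Short motifs were searched on both strands of the 26 windows. The GC box GGGCGG was in 20 of 26 member windows and in 35.7% of all 32851 windows. The TCF/LEF core CTTTGA, the site type read by the nuclear partners of beta-catenin, was in 3 (Fzd1, 1 Wnt11 and 1 Wnt5b window), against 16.0% of all windows. TATAAA was in 2 (13.6% of all) and CCAAT in 10 (37.4% of all). A match describes letters only.

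Pressure overload without drug (TAC Veh over Sham Veh) left the members close to the bulk of promoters. A promoter was counted as apart when its ratio was at least 1.5-fold (0.585 on the log2 scale) and its exact 95% interval for counting error excluded a ratio of 1. None of 34 members was apart, against 1.93% of the 22835 promoters higher and 0.582% lower. The median log2 ratio was 0.05 for members and 0.00 for all promoters, with 0.04 for Wnt, 0.11 for Fzd and -0.01 for Sfrp. For 30 members, including all 11 Fzd genes, the interval lay wholly within 1.5-fold, so that a larger difference between these libraries is outside counting error. That is 88.2% of members beside 66.3% of all promoters. The sets differ in count depth, since the lowest member mean was 75.25 counts and the filter for all promoters was 10. The median interval half-width was 0.293 for members and 0.265 for all promoters, but a median does not describe the promoters with the fewest counts. Given this unlike depth, the shares do not show steadier members. The remaining 4, among them Wnt7a (0.32, -0.09 to 0.74), had intervals reaching beyond 1.5-fold and were not resolved.

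Within that range, Sfrp1 was highest at a log2 ratio of 0.45 (0.16 to 0.74), followed by Wnt7a and Fzd1 (0.26, 0.08 to 0.44). Fzd2, a receptor of Wnt5a, was at 0.23 (0.02 to 0.45). The lowest were Sfrp5 (-0.38, -0.79 to 0.03), Wnt9b (-0.28, -0.57 to 0.01) and Wnt4 (-0.16, -0.57 to 0.25), and Fzd4 was at -0.13 (-0.27 to -0.00). With scaling that follows mean count (loess), the Fzd4 interval included a ratio of 1. Intervals above a ratio of 1, whatever the fold, occurred in 3 members and in 5.82% of all promoters, and intervals below in 1 and in 7.2%. All 4 non-canonical ligands lay below 0 and 11 of 15 others above, in a range of -0.28 to 0.32, where 11435 of 22835 promoters lay below 0. No Wnt interval excluded a ratio of 1. The split also depends on the row chosen: weaker rows of Wnt5a (0.11), Wnt11 (0.08) and Wnt5b (0.19) lay above 0, and another Wnt5b row was at -0.05.

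TSA under pressure overload (TAC TSA over TAC Veh) again placed no member apart, against 4.06% of promoters higher and 0.342% lower. The member median was 0.01 and that of all promoters 0.00. Wnt3a, a canonical ligand, had the highest ratio at 0.55 (0.12 to 0.98), from 13.7 CPM in TAC Veh to 20.1 in TAC TSA, and its sham libraries were at 14.6 each. Sfrp5 was at 0.53 (0.11 to 0.96) and Wnt8b at 0.52 (0.05 to 0.99). All 3 have at most 129 counts in any library, and receptor reference promoters had a median of 0.41 in this comparison. Scaling that follows mean count (loess) lowers the ratios by 0.14 for Wnt3a, 0.14 for Sfrp5 and 0.17 for Wnt8b. None of the 3 intervals then excludes a ratio of 1. The lowest were Sfrp2 (-0.31, -0.64 to 0.03), Fzd3 (-0.28, -0.60 to 0.03) and Sfrp1 (-0.28, -0.59 to 0.03). At any fold, intervals above a ratio of 1 occurred in 4 members and in 8.13% of all promoters, and intervals below in 2 and in 10.4%.

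Fzd1 and Fzd2 had their highest level in TAC Veh on bulk scaling. Fzd1 was at 73.3, 74.2, 87.8 and 74.8 CPM, and the ratio of TAC TSA over TAC Veh was -0.23 (-0.42 to -0.04). Fzd2 was at 50.9, 47.2, 59.8 and 49.6 CPM, with a ratio of -0.27 (-0.50 to -0.03). With loess scaling neither the Fzd1 nor the Fzd2 interval for this comparison excluded a ratio of 1. Both ratios rest on the TAC Veh library that also enters the first comparison, so they are not a separate observation of it. With receptor-promoter scaling the ratios of TAC Veh over Sham Veh were 0.02 for Fzd1 and -0.01 for Fzd2, and Fzd2 was then highest in Sham Veh. On bulk scaling the Wnt5a ratio of TAC TSA over TAC Veh was 0.25 (0.01 to 0.49). TAC Veh was then its lowest library at 47.5 CPM, against 53.0 to 58.6 in the others. With receptor-promoter scaling TAC TSA was the lowest library of Wnt5a, at 42.7 CPM against 47.0 in TAC Veh. Intervals for 26 of 34 members (76.5%) lay within 1.5-fold, beside 61.5% of all promoters, and the 8 others were not resolved. These shares again compare sets of unlike count depth.

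Pressure overload among TSA-treated mice (TAC TSA over Sham TSA) had 1 member apart. Wnt8b had 75, 68, 74 and 84 counts, or 11.1, 9.82, 11.6 and 16.7 CPM. Only the TAC TSA library was high, and the log2 ratio over Sham TSA was 0.76 (0.29 to 1.25). The 1 of 34 (2.94%) is below the share of all promoters, where 7.2% were apart and higher and 0.206% lower. In this comparison receptor reference promoters had a median of 0.67, close to the value of Wnt8b. With scaling that follows mean count (loess), Wnt8b was at 0.51, short of 1.5-fold and so no longer apart, though its interval still excluded a ratio of 1. With receptor-promoter scaling it was at 12.6 CPM in TAC TSA and 11.2 in Sham TSA, and not apart.

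Wnt3a (0.46, 0.05 to 0.87) and Wnt7a (0.43, -0.01 to 0.87) came next in TAC TSA over Sham TSA. At the other end were Fzd5 (-0.20, -0.39 to -0.01), Fzd4 (-0.19, -0.33 to -0.05) and Wnt9b (-0.15, -0.46 to 0.16). The 3 highest ratios thus belonged to weak promoters, and the 3 lowest included 2 of the 4 strongest members. With loess scaling Fzd5 was at -0.08 (-0.26 to 0.11), and the intervals of Fzd4 and Wnt3a also included a ratio of 1. At any fold, intervals above a ratio of 1 occurred in 2 members and in 10.3% of all promoters, and intervals below in 2 and in 13.8%. The member median was 0.03, against -0.01 for all promoters. Of the 34 members 25 (73.5%) had an interval within 1.5-fold, beside 62.4% of all promoters, a set of unlike count depth.

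TSA in sham mice (Sham TSA over Sham Veh) gave the narrowest spread, with no member apart, against 0.582% of promoters higher and 0.582% lower. No member's interval excluded a ratio of 1 at any fold, whereas 5.2% of all promoters had an interval above and 3.81% below. Wnt2, a ligand of lung and placenta development, was lowest at -0.35 (-0.71 to 0.01; 146 and 117 counts), then Wnt1 (-0.20, -0.45 to 0.06) and Wnt4 (-0.19, -0.60 to 0.21). The highest were Wnt16 (0.19, -0.22 to 0.60), Wnt2b (0.18, -0.10 to 0.46) and Fzd9 (0.17, -0.15 to 0.49). This comparison and that of TAC Veh over Sham Veh do not use the TAC TSA library, and neither had a member apart.

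**Figure D3:**
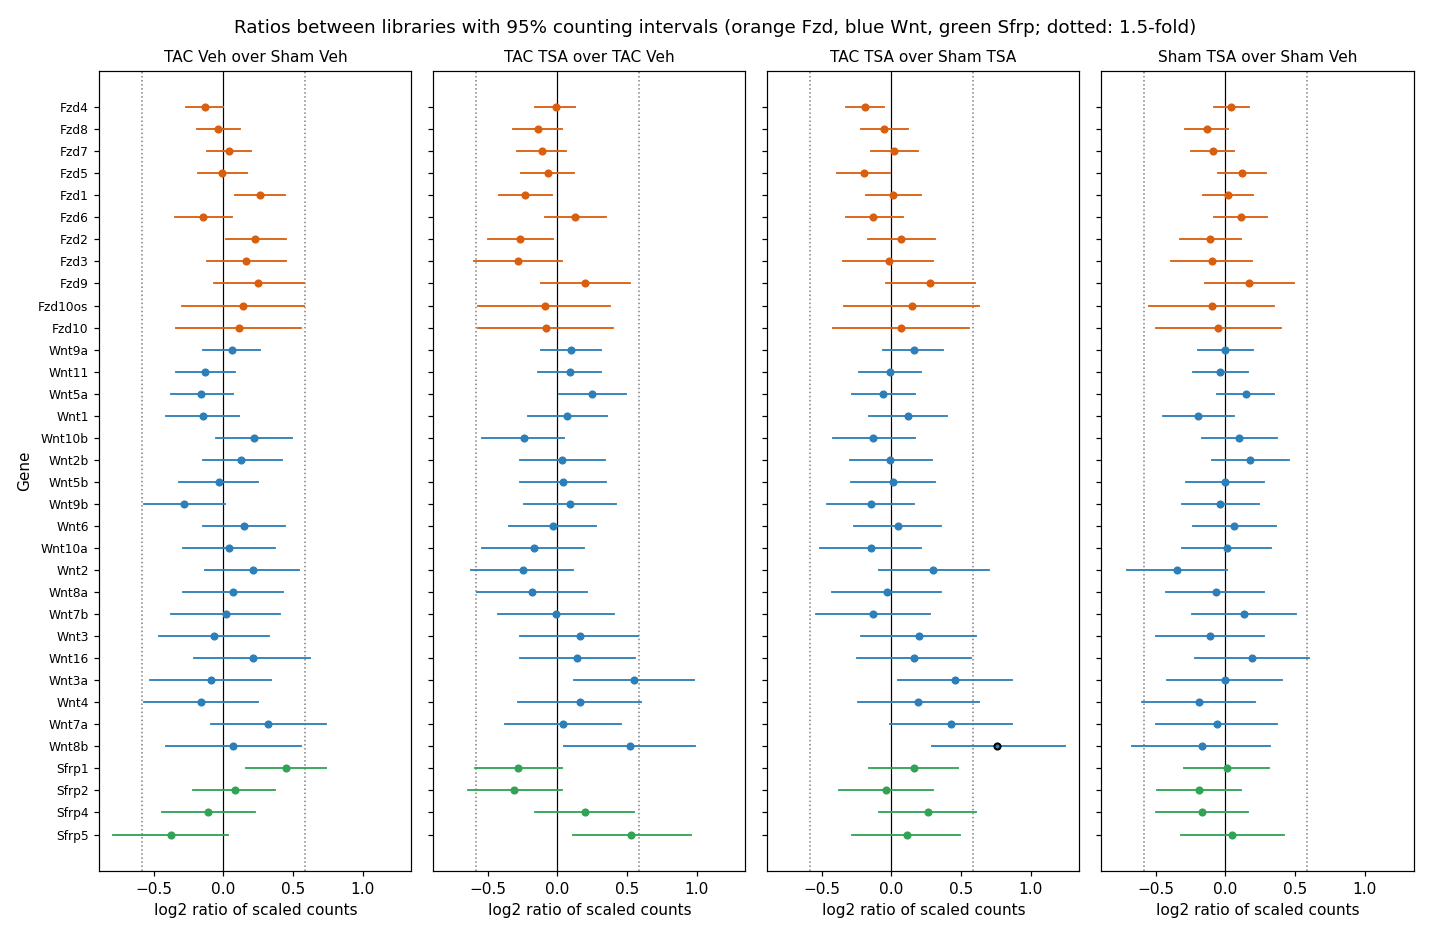
Log2 ratio of scaled counts for each member in the 4 comparisons (points) with exact 95% counting intervals (lines); dotted lines mark 1.5-fold and a black outline marks a promoter counted as apart. Only Wnt8b in TAC TSA over Sham TSA, at 0.76, is outlined, and the intervals widen toward the weak promoters at the bottom of each family.

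With surgery and drug as additive terms of 1 model, no member was called (edgeR quasi-likelihood test, Benjamini-Hochberg over 22835 promoters, threshold 0.05). For surgery, 0.0131% of promoters were called higher and 0.0219% lower, and for drug 0.206% higher and 0.00876% lower. For surgery the smallest adjusted p was that of Sfrp1, 0.506 (log2 fold change 0.31), the single member with an unadjusted p under 0.05 (0.0376), where 9.32% of all promoters had one. For drug no member had an unadjusted p under 0.05, against 4.27% of all promoters, and the lowest was Wnt2 (log2 fold change -0.30, unadjusted p = 0.0873). DESeq2 and limma-voom called 0 members for either term, with 0 and 2 members (Fzd4 and Sfrp1) at an unadjusted p under 0.05 for surgery and 0 each for drug. Of all 22835 promoters, DESeq2 and limma-voom had 47 and 2145 at that limit for surgery, and 61 and 957 for drug. The effect of TSA with overload was also set against that without it. The log2 ratio of TSA over vehicle in TAC minus that in sham had a counting interval above 0 in 1 member, Wnt8b (0.69, 0.04 to 1.35), and below 0 in none, against 7.08% and 9.14% of all promoters. Receptor reference promoters had a median of 0.37 for this difference, and loess scaling brought Wnt8b to 0.49 (-0.16 to 1.15), where no member's interval excluded 0. Next on bulk scaling were Wnt3a (0.55, -0.02 to 1.13) and Sfrp5 (0.49, -0.06 to 1.03), and Wnt10b was lowest (-0.34, -0.73 to 0.05). The additive fit has 1 residual degree of freedom, the interaction of surgery and drug, and its estimates of spread borrow from all genes.

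Summed over a family, levels were close between libraries. The 19 Wnt promoters together held 537 (exact Poisson 95% interval 520 to 555), 536 (519 to 553), 537 (519 to 556) and 561 CPM (540 to 582). The 11 Fzd promoters held 707 (687 to 727), 705 (685 to 725), 720.4 (699.6 to 741.5) and 676.5 CPM (654 to 699.6). The 4 Sfrp promoters held 97.2 (90.0 to 105), 91.8 (84.8 to 99.2), 103 (94.8 to 111) and 99.8 (91.3 to 109). Intervals of all libraries overlap within the Wnt and Sfrp families, and those of the Fzd family in TAC Veh and TAC TSA meet at 699.6 CPM. Overlap or contact of single-library intervals does not show that a ratio lies within counting error, and intervals for ratios of these sums were not computed.

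These sums can be set beside those of cell type markers, which differed more between libraries for cardiomyocytes, fibroblasts and leukocytes. The 10 cardiomyocyte markers summed to 633, 737, 433 and 727 CPM, with a median log2 ratio of -0.57 in TAC Veh over Sham Veh and of 0.68 for TAC TSA over TAC Veh. The 10 fibroblast markers summed to 304, 326, 387 and 319 CPM (medians 0.40 and -0.27) and 9 measured leukocyte markers of 10 to 168, 207, 219 and 157 CPM (0.47 and -0.48). The 8 endothelial markers summed to 663, 641, 574 and 602 CPM, and the 8 smooth muscle and pericyte markers to 296, 294, 312 and 288. On bulk scaling Sfrp1, Fzd1 and Fzd2 were highest in the library in which fibroblast and leukocyte markers were highest. So were Fzd3, Fzd7, Fzd10, Fzd10os, Sfrp2, Wnt2, Wnt6, Wnt8a, Wnt10a and Wnt10b, though their TAC Veh over Sham Veh intervals all included a ratio of 1. Those of Sfrp1, Fzd1 and Fzd2 lay above it, as did 5.82% of all promoters. The share of all promoters highest in TAC Veh was not counted, so the list does not set the members apart from other promoters. The part of these cells in the values of the members was not tested. Fewer cells of a type and less acetylation per cell cannot be told apart in whole ventricle.

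**Figure D4:**
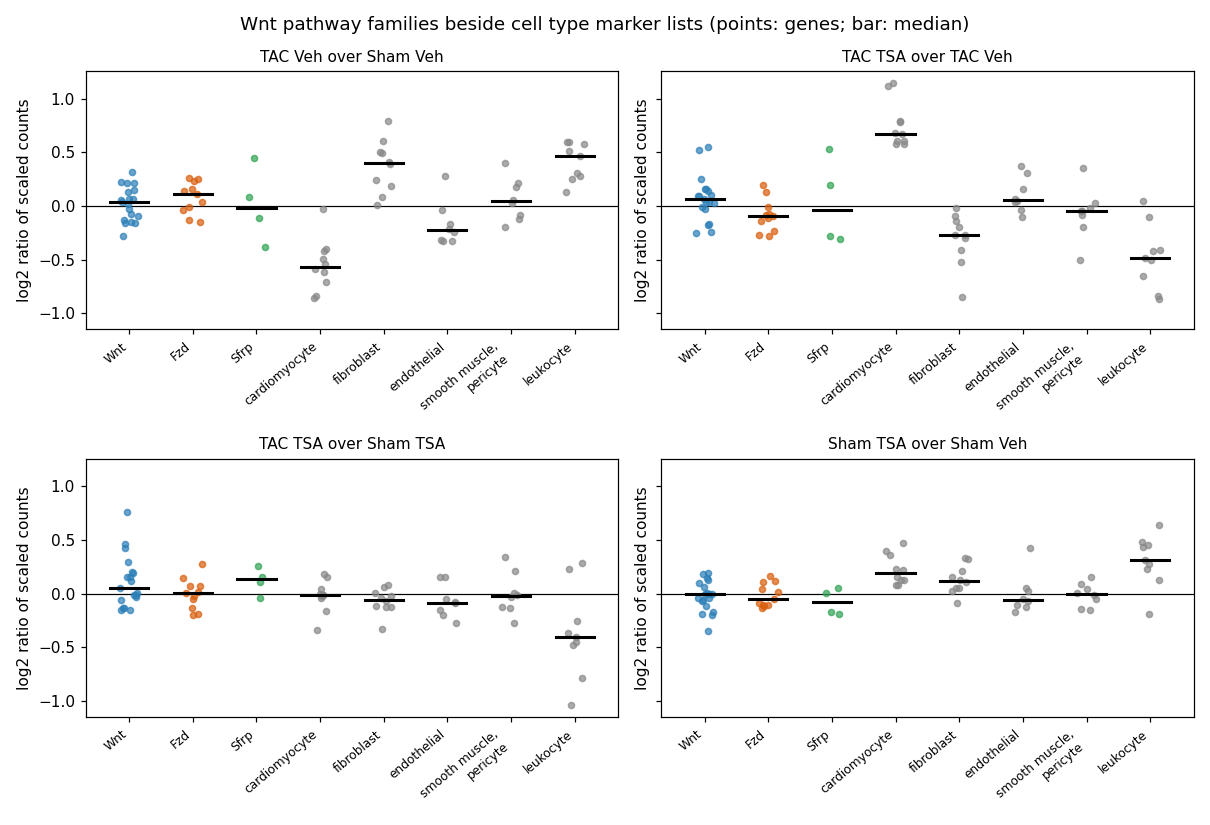
Log2 ratio of scaled counts of each gene (points) with the list median (bar) for the 3 families and 5 cell type marker lists in the 4 comparisons. In TAC Veh over Sham Veh the medians of the families lie between -0.01 and 0.11, whereas that of cardiomyocyte markers lies at -0.57 and that of fibroblast markers at 0.40.

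Genes with several promoter rows allowed a look at separate starts. Wnt5a had a strong row (359, 406, 302 and 284 counts) and a weaker one (137, 164, 139 and 101 counts), whose ratios of TAC TSA over TAC Veh were 0.25 (0.01 to 0.49) and -0.13 (-0.51 to 0.25). The intervals overlap. Wnt11 had rows of 416, 415, 356 and 300 counts and of 346, 411, 344 and 293 counts, whose ratios of Sham TSA over Sham Veh were -0.04 (-0.23 to 0.16) and 0.22 (0.01 to 0.43). Of 3 Wnt5b rows, the one at 165, 154, 176 and 154 counts was at 0.46 (0.13 to 0.79) for TAC TSA over Sham TSA, and the strongest at 0.01 (-0.29 to 0.31). The weakest of 3 Wnt7b rows, with 81, 67, 75 and 74 counts, was at 0.60 (0.11 to 1.1) in that comparison, where the strongest Wnt7b row was at -0.13 (-0.54 to 0.28). By the limits used for genes that weak row is apart, and with the loess shift for its level it was at 0.32 (-0.17 to 0.82). The paired rows of Fzd5 had identical counts and those of Fzd6 nearly so.

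Promoters of 58 other Wnt pathway genes were read by the same rules. Of these, none was apart in TAC Veh over Sham Veh, TAC TSA over Sham TSA or Sham TSA over Sham Veh, while for TAC TSA over TAC Veh there was 1, where 4.06% of all promoters were apart and higher. It was Lgr5, an R-spondin receptor and stem cell marker, with 88, 103, 76 and 93 counts and a log2 ratio of 0.63 (0.17 to 1.08), which loess scaling brought to 0.47 and short of 1.5-fold. The median ratios of the 58 lay between -0.02 and 0.01 in the 4 comparisons. In TAC TSA over TAC Veh they ranged from -0.58 (Ror2, a Wnt5a receptor, -0.91 to -0.25) to 0.63. At any fold, 4 had an interval below a ratio of 1 in Sham TSA over Sham Veh (Lrp5, Ryk, Nkd1 and Tcf7l1), where 3.81% of all promoters did. For the TSA ratio in TAC minus that in sham, Gsk3b, Tcf7l2, Wls and Prickle2 had intervals below 0, where 9.14% of all promoters did. These 9 genes were named after their values were seen. Of all 58 genes, the additive fit called 0 for either term (edgeR quasi-likelihood test). Among the 58, 4 had an unadjusted p under 0.05 for surgery and 3 for drug, where 9.32% and 4.27% of all promoters had one.

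By role, 13 cytoplasmic components, from the Dishevelled adaptors to the destruction complex and its feedback inhibitors, ranged from -0.22 to 0.34 in TAC Veh over Sham Veh (median -0.05). The 6 co-receptors ranged from -0.15 to 0.26, 10 secreted antagonists from -0.22 to 0.35 and 9 genes of the R-spondin module, which sets how much Frizzled stays at the membrane, from -0.15 to 0.36. The 9 nuclear factors ranged from -0.41 to 0.30 and 9 planar polarity genes from -0.23 to 0.08. Porcn and Wls, which acylate and export Wnts, were at -0.03 and -0.01. Promoters of the 13 cytoplasmic components were strong, with a list median of 75.3 CPM, although Nkd1 and Nkd2 among them were at 35.7 and 31.5 CPM. Those of the R-spondin module were weak, with a median of 19.8 CPM.

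The sign of small ratios depends on the scale. Scaling on the receptor reference promoters instead of the bulk puts the median of all promoters at -0.24 for TAC Veh over Sham Veh, at -0.38 for TAC TSA over TAC Veh and at -0.61 for TAC TSA over Sham TSA. The members moved with the bulk, to medians of -0.19, -0.37 and -0.56. On that scale 1, 7 and 14 members were apart and lower, which is 2.94%, 20.6% and 41.2% of them beside 3.77%, 14.3% and 52.1% of all promoters. None was higher, where 0.521%, 0.438% and 0.447% of all promoters were. In Sham TSA over Sham Veh no member was apart on it, against 0.477% of promoters higher and 0.749% lower. The only member named for TAC Veh over Sham Veh was Sfrp5, at -0.62, and Sfrp1 was at 0.21.

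With loess scaling no member was apart in any comparison. The shares of all promoters were then 0.907% higher and 1.07% lower in TAC Veh over Sham Veh, 1.41% and 1.07% in TAC TSA over TAC Veh, 0.942% and 1.34% in TAC TSA over Sham TSA, and 0.604% and 0.547% in Sham TSA over Sham Veh. A 2-fold limit likewise left no member, beside 0.828% and 0.0657%, 1.27% and 0.00876%, 2.98% and 0.0175%, and 0.197% and 0.14% of all promoters in that order of comparisons. Wnt8b is thus the only member that stood apart on bulk scaling at 1.5-fold, and it did not under either change.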

How the data were processed

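Read counts for each RefSeq promoter were deposited by the authors without normalisation. Tools named by the submitters' processing notes are BWA 0.5.9 and MACS 1.4.1, with build mm9, and the labels' protocols give 15 PCR cycles. For the tools' roles, promoter window, duplicates and input, information is not given in the sources used here. 6 deposited region lists carry no gene names and were not used here. No value column was left unused, and no libraries were identical.

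Of 31594 RefSeq IDs, 31115 (98.5%) matched a symbol (GRCm38.p6, names only). The 479 others held 1.11% of counts and were left out. Of 23631 genes, 22835 had a mean count of at least 10, all 34 members among them. Totals were 9612616 for Sham Veh, 8873302 for TAC Veh, 9905553 for Sham TSA and 6842296 for TAC TSA. TMM and the additive fit used edgeR 4.0.16 (R 4.3.3), with DESeq2 1.42.0 and limma 3.58.1 as alternatives. The 95% intervals of ratios are exact conditional (Clopper-Pearson) intervals. They cover counting error only, compare 2 libraries rather than 2 conditions, and treat PCR reads as independent. Python 3.11.15, scipy 1.17.1 and statsmodels 0.14.6 did the rest, and methods were tested on simulated data. Other scalings, filters, row choices and folds were tried.

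Members, lists and tests were chosen with earlier results of these data known. Genes were named by rule: members apart in any comparison, the 5 with the highest mean, the Sfrp family, the 3 highest and 3 lowest ratios per comparison at a mean count of at least 50, and pathway genes that were apart. Other named members were chosen after their values were seen. Shown sequences are the 4 described, by rule except Wnt9a and Wnt3a.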

Additional observations from a re-analysis of the deposited data

Results flagged for a closer look

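On bulk scaling, the TSA ratio of Wnt8b with pressure overload differed from that without by slightly more than counting error, and this did not hold under other scalings. Its log2 ratio of TSA over vehicle was 0.52 in TAC and -0.17 in sham, a difference of 0.69 with an approximate 95% counting interval of 0.04 to 1.35. It was the only one of 34 members whose interval excluded 0, where 7.08% of all promoters had an interval above and 9.14% below. With loess scaling the difference was 0.49 (-0.16 to 1.15), and with receptor-promoter scaling 0.34 (-0.32 to 0.99). The receptor reference promoters had a median difference of 0.37 on bulk scaling. The difference rests on 68 to 84 counts per library and was not tested against replicates, since each group has 1 library.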

How the results depend on the processing

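The counts of members apart were the same with DESeq2 size factors, with no filter on low counts and with the mean over all RefSeq rows of a gene (1 for TAC TSA over Sham TSA, 0 elsewhere). Scaling on receptor promoters gave 1 in TAC Veh over Sham Veh, 7 for TAC TSA over TAC Veh, 14 for TAC TSA over Sham TSA and 0 for Sham TSA over Sham Veh. Loess scaling and a 2-fold limit each gave 0 in TAC TSA over Sham TSA, where Wnt8b was the member lost. At 2-fold 2.98% of all promoters were higher there, and with loess scaling 0.942%. Members called in the additive model numbered 0 for surgery and for drug under all 5 alternatives. Their smallest adjusted p ranged from 0.283 to 1.0 for surgery and from 0.871 to 1.0 for drug. Of single-gene values and medians, 71 moved beyond their counting interval, all under receptor scaling, and 650 did not. Members whose TSA ratio in TAC differed from that in sham beyond counting error numbered 1 with TMM or DESeq2 size factors, 0 with loess and 14 (all lower, where 47.3% of all promoters were) with receptor scaling, alternatives chosen after seeing the data. The Wnt8b difference lost its call under the latter pair. No sign of a called value turned. In TAC TSA over Sham TSA the split of all promoters apart was 1643 higher and 47 lower, 215 and 307 with loess scaling and 102 and 11895 with receptor scaling. In TAC TSA over TAC Veh it was 927 and 78, then 321 and 245, and 100 and 3259. In TAC Veh over Sham Veh it was 440 and 133, then 207 and 244, and 119 and 860. DESeq2 called 0 promoters of all genes for either term, where edgeR called 8 for surgery and 49 for drug. No library could be left out, because each group has 1. No paired analysis was possible because each group has 1 library and the labels carry no replicate numbers. Depth limits the weak promoters: the median interval of a member reached 0.29 to 0.32 on the log2 scale to either side.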
